A study of Capra hircus with 27 samples.

Results

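The lung-enriched genes were the 150 goat genes whose expression in lung stood furthest above that in heart and skeletal muscle. For each gene, the log2(FPKM + 1) values of the 9 libraries of a tissue were averaged, and the lung excess was the lung mean minus the larger of the heart and muscle means. FPKM is the number of sequenced fragments scaled by transcript length and sequencing yield, so that levels can be compared between genes per length. Among 17671 genes with homolog-based IDs, out of 22131 in all, 488 had a lung excess of at least 3 and a mean lung FPKM of at least 5. The 150 with the largest excess were taken and are called here by their rank, rank 1 having the largest excess. The genes were thus chosen by their measured FPKM in all 27 libraries, and the excess, with the low level in heart and muscle, is a description and not a result.

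The series holds libraries of indigenous goat populations from 3 altitudes. The paper that reported these data left the 2000 m goats out of its own work. The 600 m goats came from Ya'an, the 2000 m goats from Zhaotong and the 3000 m goats from A'ba, and the animals were about 3 years old. For each altitude there were 3 libraries of heart, 3 of lung and 3 of skeletal muscle, 27 in all. No treatment was given, and altitude and population coincide, so their effects cannot be told apart. The paper's methods describe 3 unrelated adult females per population for 600 m and 3000 m, but the labels do not say it. If the libraries of a group did not come from separate animals, the p-values measure only the spread between these libraries, which may be technical.

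Lung tissue brings air and blood together across a thin wall of flat epithelial cells and capillaries. Cuboidal alveolar cells make the surfactant of lipids and proteins that keeps the air spaces open, secretory and ciliated cells line the airways, and macrophages and lymphocytes defend the surface. Genes that lung uses far more than muscle tissues do usually belong to these cell types, and because each cell type makes up a variable part of a tissue sample, such genes can move together from one sample to the next. In bulk tissue, fewer cells of a type and less RNA per cell cannot be told apart.

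None of the IDs could be paired with a gene symbol (0 of 22131 matched), so no gene is given a name or a role, and the tissue labels were not checked against marker genes of lung, heart or muscle. The IDs are built from the cattle or human protein used to predict the goat gene. Of the 150 genes, 65 (43.3%) carried human-type and 85 cattle-type IDs, beside 47.5% human-type among all homolog-based IDs. A suffix that marks a further goat copy of the same homolog was present in 9 (6%, beside 7.35% of all). For 6 genes the files listed other goat copies of the same homolog, 7 in all, whose reads could have been shared with the listed gene. Of those 7 copies, 1 also had the excess and the FPKM that were asked for, and none was among the 150.

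The absolute depth of the libraries is unknown. Relative to their geometric mean, the depths estimated from the value of 1 read were 0.950 to 1.26 in lung, 0.795 to 0.961 in heart and 0.896 to 1.22 in muscle. The muscle libraries of 600 m, replicates 1 and 2, differed by about the sampling noise and were counted as 1 sample. Their variance over 95 genes whose reads could be recovered was 1.10 times that of sampling, beside 3.54 to 26.9 times in the other 26 replicate pairs, and the robust SD of their log2 ratio above 50 FPKM was 0.0849, beside 0.193 to 0.471. Lung 600 m replicates 2 and 3 stood apart from the other 7 lung libraries. On the first principal component of all lung genes above 0.5 FPKM, which held 38.9% of the variance, they lay at -51.4 and -60.8, and the others between -6.68 and 34.2.

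The lung excess ranged from 4.18 to 10.80 on the log2 scale, with a median of 4.84. It exceeded 5 in 64 genes and 8 in 10. Mean lung FPKM ranged from 19.9 to 10057, with a median of 100.1, and was above 1000 in 9 genes, between 100 and 1000 in 66 and below 100 in 75. The median of the mean FPKM was 0.482 in heart and 0.558 in muscle. In 135 genes the lowest lung library lay above every heart and muscle library. The last 2 genes of the list had an excess of 4.18 each and the next 2, which were left out, had 4.17 each, so no gap parted the list from the genes behind it.

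**Figure D1:**
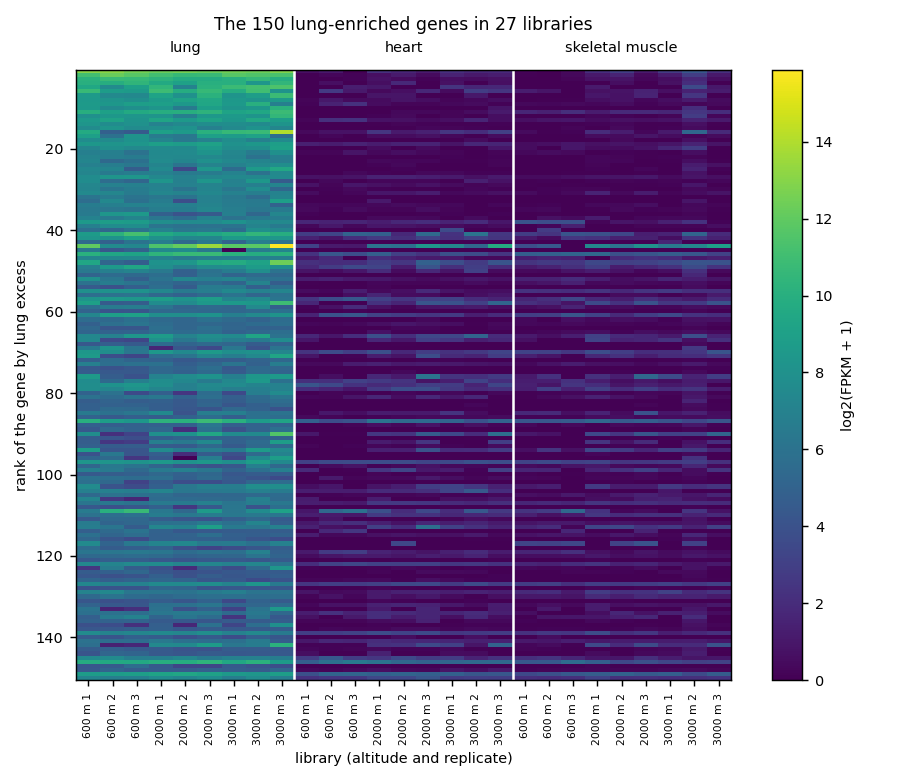
Level of the 150 genes (rows, in order of rank) in the 27 libraries (columns, by tissue, altitude in m and replicate), as log2(FPKM + 1) on the colour scale. The lung block is bright throughout, while in heart and muscle a few rows stand out, of which rank 44 is the brightest.

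The low level in heart and muscle was not a uniform absence. A mean FPKM above 0.5 was reached by 74 of the genes in heart, by 76 in muscle and by 67 in both, and a mean above 5 by 27 in heart and 19 in muscle. Genes listed at 0 in all 9 libraries numbered 11 in heart and 2 in muscle, and these 2 were listed at 0 in heart as well. Heart had the higher mean in 80 genes and muscle in 68. In linear FPKM, the median fold of lung over heart was 136 over the 139 genes above 0 in heart, and that of lung over muscle was 175 over the 148 genes above 0 in muscle. The highest heart means were 171 FPKM (rank 44), 48.3 FPKM (rank 146) and 33.2 FPKM (rank 87). In muscle they were 138 FPKM (rank 44), 23.2 FPKM (rank 46) and 21.2 FPKM (rank 87).

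One muscle library differed from the others in these genes. In muscle 3000 m replicate 2, 99 of the 150 genes were above 0.5 FPKM and 9 were listed at 0, whereas in the other 8 muscle libraries 53 to 67 were above 0.5 FPKM and 34 to 65 were listed at 0. Its median over the 150 genes was 0.932 FPKM, the highest of the 9, and in that tissue rank 1 reached 18.1 FPKM there and 0 to 6.37 FPKM elsewhere. Its share of all genes above 0.5 FPKM was 54.0%, the highest of the muscle libraries, which began at 51.9%.

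Rank 1 was a lung gene of high and steady level. It had 8041, 8353 and 5702 FPKM at 600 m, 4943, 5896 and 4823 FPKM at 2000 m and 5555, 5016 and 7265 FPKM at 3000 m. The highest library was thus 1.73 times the lowest. Rank 2 had 2157, 4854 and 3426 FPKM at 600 m, 2157, 1562 and 1745 FPKM at 2000 m and 3509, 2951 and 2577 FPKM at 3000 m, and it did not pass the test between any 2 altitudes in lung. Ranks 3 and 4 averaged 1207 and 940.5 FPKM in lung, and both stayed below 1 FPKM on average in heart and muscle. Ranks 5 to 10 averaged 1227, 1119, 586, 406, 474 and 382 FPKM. Among them the highest lung library exceeded the lowest 3.08 times in rank 8, but 21.8 times in rank 5 and 12.7 times in rank 10.

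The most abundant gene of the list was uneven. Rank 44 had 4062, 201 and 164 FPKM at 600 m, 2823, 4443 and 11424 FPKM at 2000 m and 3570, 3610 and 60212 FPKM at 3000 m. Replicate 3 at 3000 m was therefore 367 times the lowest library, 600 m replicate 3. Rank 16 was lowest and highest in the same libraries as rank 44, and its highest library was 800.4 times its lowest, with 839, 28.5 and 21.1 FPKM at 600 m, 523, 400.04 and 1089 FPKM at 2000 m and 1602, 1721 and 16911 FPKM at 3000 m. Neither passed the test between any 2 altitudes in lung.

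Rank 44 also varied in the other tissues. In heart it had 8.30, 1.19 and 1.16 FPKM at 600 m, 69.4, 55.9 and 330 FPKM at 2000 m and 158, 38.2 and 873 FPKM at 3000 m. In muscle it had 13.3, 21.0 and 0 FPKM at 600 m, 166, 67.2 and 265 FPKM at 2000 m and 97.0, 158 and 459 FPKM at 3000 m. The highest library was 3000 m replicate 3 in each of the 3 tissues, and in heart and muscle every library of 2000 m and 3000 m lay above every library of 600 m.

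Together the 150 genes held 5.45% to 6.71% of all FPKM in the lung libraries of 600 m (5.93% ± 0.686, SD, n = 3), 5.94% to 8.13% at 2000 m (6.85% ± 1.14, SD, n = 3) and 7.90% to 20.3% at 3000 m (12.2% ± 6.998, SD, n = 3). In heart the share was 0.0250% to 0.164% and in muscle 0.0269% to 0.104%. The 20.3% belonged to 3000 m replicate 3, in which rank 44 alone held 9.41%. With rank 44 left out, the 3 libraries of 3000 m had 7.62%, 7.24% and 10.9%, and the 6 others 5.14% to 6.32%. With the 10 most abundant genes left out, they had 3.75%, 3.88% and 4.91%, which overlapped with the 2.82% to 4.02% of the others. A score over chosen genes gets no test.

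**Figure D2:**
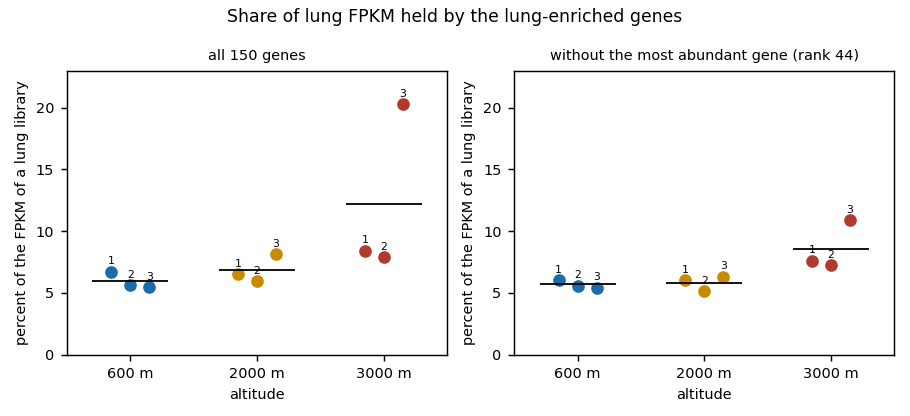
Percent of the FPKM of each lung library held by the 150 genes (left) and without the most abundant of them, rank 44 (right), by altitude in m. Points are libraries with their replicate number and lines are means of 3, and 3000 m replicate 3 falls from 20.3% to 10.9% once rank 44 is left out.

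Many of the genes varied widely between lung libraries of the same altitude. The within-altitude SD of log2(FPKM + 1), pooled over the 3 altitudes, had a median of 0.504 over the 150 genes. It was 0.266 over all 13965 genes above 0.5 FPKM in lung and 0.247 over the 4150 genes whose mean lung FPKM was at least that of the lowest of the 150. An SD above 1 was found in 35 of the 150 (23.3%), in 2.03% of all lung genes and in 2.72% of those of like level. Over the 148 genes above 0 in every lung library, the highest library was a median of 3.41 times the lowest, more than 4 times in 65 and more than 16 times in 27. No test was made of this spread, since the genes are not independent of each other.

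The least even were ranks 96, 45, 90, 133 and 25, with SDs of 2.73 down to 2.12. Rank 96 had 34.8, 43.1 and 4.79 FPKM at 600 m, 19.9, 0 and 110 FPKM at 2000 m and 9.63, 185 and 449 FPKM at 3000 m. Rank 45 was listed at 0 in all heart and muscle libraries and in lung 3000 m replicate 1, while the other 8 lung libraries held 19.0 to 197 FPKM. The most even were ranks 136, 47, 29, 110 and 121, with SDs of 0.0845 to 0.163. Rank 29, for example, stayed between 115 and 156 FPKM in the 9 lung libraries. The list thus held both genes that barely moved and genes that moved by orders of magnitude between lungs of 1 altitude.

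**Figure D3:**
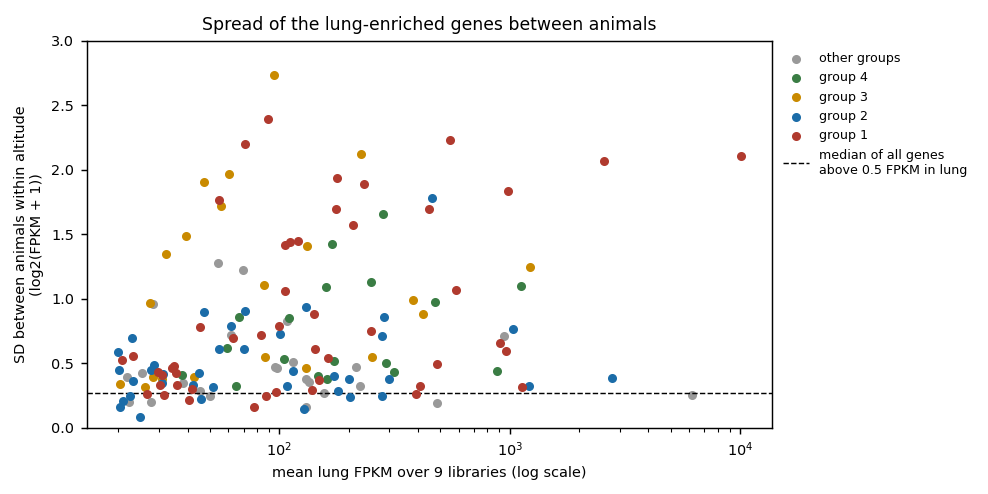
Within-altitude SD of log2(FPKM + 1) in lung against mean lung FPKM (log axis) for the 150 genes, 1 point per gene, coloured by the group of genes that vary together. Most points lie above the dashed line, the median of 0.266 over all genes above 0.5 FPKM in lung.

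The genes were sorted by how they varied over the 9 lung libraries, with average linkage on 1 minus Pearson's r and a distance of 0.7. This gave 10 groups, of which 4 held 49, 38, 21 and 18 genes and the others 9 or fewer. The groups were formed from the lung values, so their pattern in lung is a description without a test. Over all pairs of the 150 genes the median r was 0.08, and 6.98% of the 11175 pairs had an r above 0.7. All points share the same 9 libraries.

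Group 1, with 49 genes, was low in lung 600 m replicates 2 and 3. Its median was 114, 25.7 and 26.6 FPKM at 600 m, 116, 101 and 123 FPKM at 2000 m and 90.5, 98.7 and 131 FPKM at 3000 m. It included ranks 7, 8, 16, 44, 45, 46, 90 and 133. The 2 low libraries are the ones that stood apart over all lung genes, and they were the 2 lowest of 9 in 25 of the 150 genes (16.7%), all of group 1, beside 9.24% of all lung genes tested.

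Group 2, with 38 genes, ran the other way. Its median was 62.7, 87.9 and 77.3 FPKM at 600 m, 58.5, 34.3 and 45.6 FPKM at 2000 m and 48.1, 116 and 57.6 FPKM at 3000 m. It held ranks 2 and 3 and the even ranks 136, 47 and 121. In 18 of its genes 600 m replicates 2 and 3 were the 2 highest of the 9 libraries. Over the 150 genes this held for 19 (12.7%), beside 19.5% of all lung genes tested.

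Group 3, with 21 genes, was set by 2 single libraries. Its median was highest in 3000 m replicate 3, at 201 FPKM, lowest in 2000 m replicate 2, at 15.8 FPKM, and 30.2 to 63.8 FPKM in the other 7. It held ranks 5, 10, 25 and 96. In lung 2000 m replicate 2, 39 of the 150 genes had their lowest value (26.0%, beside 6.98% of all lung genes tested), 20 of them in group 2 and 16 in group 3. In muscle 3000 m replicate 2, the library noted above, the genes of group 3 summed to 44.2 FPKM, beside 1.24 to 17.2 FPKM in the other muscle libraries.

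Group 4, with 18 genes, was lowest in 3000 m replicate 3. Its median there was 60.3 FPKM, beside 120 to 258 FPKM in the other 8 lung libraries, and 17 of its 18 genes had their lowest value in that library. Over the 150 genes it was the lowest library in 21 (14%), beside 11.2% of all lung genes tested. Ranks 6 and 9 belonged to it, with 287 and 113 FPKM there and 407 to 2027 FPKM and 338 to 1030 FPKM elsewhere. The same library was the highest in 31 of the 150 genes (20.7%, beside 9.86% of all), 16 of them in group 3 and 13 in group 1.

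**Figure D4:**
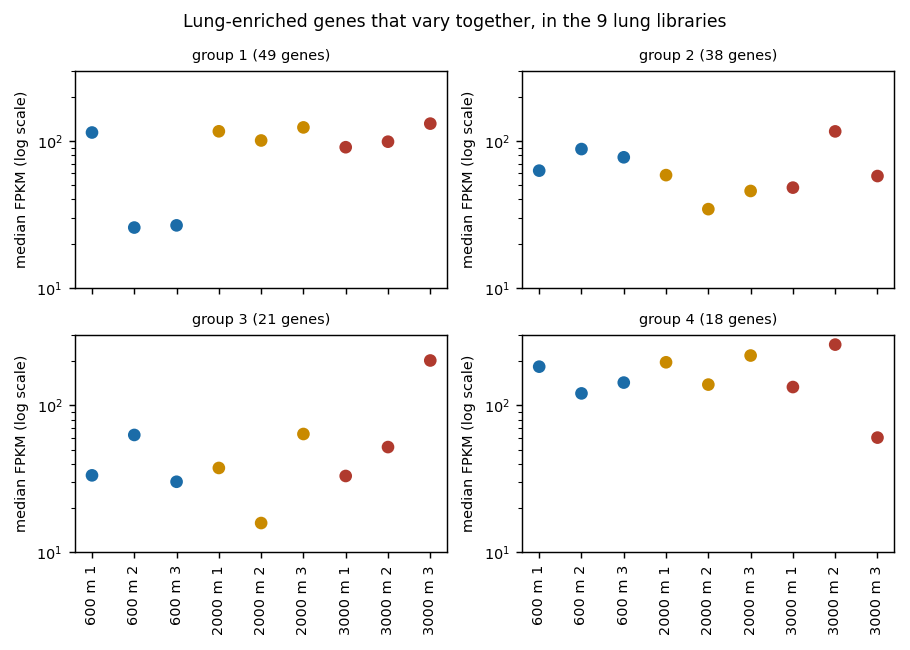
Median FPKM (log axis) of the 4 largest groups of genes that vary together, in each of the 9 lung libraries, coloured by altitude in m. Group 1 is low in 600 m replicates 2 and 3, group 3 is highest and group 4 lowest in 3000 m replicate 3, and the median of group 2 ranges from 34.3 to 116 FPKM.

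The first question of the design was whether lung expression of these genes differed between altitudes. Between 3000 m and 600 m, 3 of the 150 genes passed limma's test at an adjusted p of at most 0.05, adjusted over all 13965 lung genes tested, 1 higher and 2 lower at 3000 m. That is 2%, beside 2.84% of all lung genes, of which 0.730% were higher and 2.11% lower. Between 2000 m and 600 m, 12 passed (8%, beside 5.10% of all), 4 higher and 8 lower at 2000 m, beside 2.22% higher and 2.88% lower of all. Between 3000 m and 2000 m, 0 of the 150 and 0.00% of all passed limma's test, with 20 of the 150 and 807 of all genes (5.78%) at an unadjusted p under 0.05, and after quantile normalization 0 of the 150 passed as well. All comparisons with 600 m share the same 3 libraries.

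The changes ranged widely on both sides of 0. Between 3000 m and 600 m the median log2 change of the 150 genes was 0.04, beside -0.08 over all genes, and 33 genes (22%) differed at least 2-fold on the log2(FPKM + 1) scale, beside 5.33% of all. Between 2000 m and 600 m the median was 0.09, beside -0.05, and 36 genes (24%) differed at least 2-fold, beside 6.11%. Between 3000 m and 2000 m the median was 0.05, beside -0.03, and 28 genes (18.7%) differed at least 2-fold, beside 2.11%. The standard error of these changes had a median of 0.35 over the 150 genes and of 0.21 over all genes. Only 4150 of the 13965 genes had a mean lung FPKM at least that of the lowest of the 150. In genes of lower level the pseudocount of 1 shrinks changes, and the 2-fold share among genes of like level was not counted.

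The libraries of 3000 m and 600 m did not overlap in 11 genes that were higher at 3000 m and 14 that were lower, 25 of 150, beside 10.2% and 20.4% of all lung genes. For 2000 m against 600 m there were 30 such genes higher and 19 lower at 2000 m, beside 15.8% and 20.1%. For 3000 m against 2000 m there were 8 and 13, beside 3.09% and 8.15%.

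Rank 132 (GOAT_ENSBTAP00000009697) was higher at 2000 m than at 600 m. It had 32.5, 19.8 and 18.3 FPKM at 600 m, 58.1, 60.01 and 73.6 FPKM at 2000 m and 33.5, 36.03 and 44.9 FPKM at 3000 m. The 3 altitudes did not overlap, with 600 m lowest and 2000 m highest. The log2 change from 600 m to 2000 m was 1.44 (SE 0.22, limma's adjusted p = 0.0358).

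Rank 60 (GOAT_ENSBTAP00000038143) was higher at 3000 m than at 600 m. It had 31.6, 16.8 and 17.0 FPKM at 600 m, 40.2, 39.8 and 38.9 FPKM at 2000 m and 39.0, 43.5 and 56.7 FPKM at 3000 m. Every library of 600 m lay below the other 6. The log2 change from 600 m to 3000 m was 1.10 (SE 0.24, limma's adjusted p = 0.0496).

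Rank 36 (GOAT_ENSBTAP00000006029) was lower at 2000 m than at 600 m. It had 87.6, 324 and 391 FPKM at 600 m, 28.3, 15.7 and 21.4 FPKM at 2000 m and 116, 38.9 and 156 FPKM at 3000 m. The 2000 m libraries lay below all others, and those of 600 m and 3000 m overlapped. The log2 change from 600 m to 2000 m was -3.34 (SE 0.62, limma's adjusted p = 0.0361).

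Rank 69 (GOAT_ENSP00000369547) was lower at 2000 m than at 600 m as well. It had 87.8, 280 and 68.0 FPKM at 600 m, 2.30, 19.0 and 10.4 FPKM at 2000 m and 76.1, 15.4 and 68.95 FPKM at 3000 m. The 3 libraries of 2000 m lay below those of 600 m, and 3000 m replicate 2 lay among those of 2000 m. The log2 change from 600 m to 2000 m was -3.72 (SE 0.81, limma's adjusted p = 0.0425). Outside lung this gene was listed at 0 in every library but muscle 3000 m replicate 2, which had 5.20 FPKM.

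**Figure D5:**
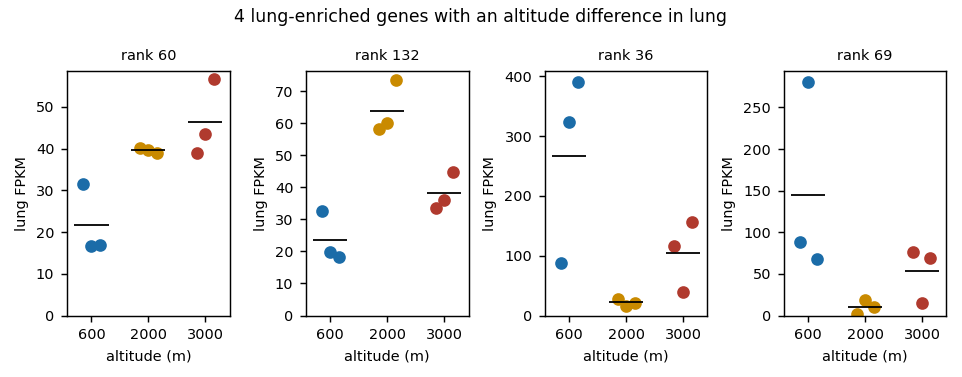
Lung FPKM of 4 genes that passed the test, by altitude in m, with 1 point per library and a line at the mean of 3. Ranks 60 and 132 are lowest at 600 m, and ranks 36 and 69 are lowest on average at 2000 m.

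Rank 38 was the 1 gene that passed in both comparisons with 600 m. It had 392, 454 and 414 FPKM at 600 m, 231, 204 and 198 FPKM at 2000 m and 276, 172 and 173 FPKM at 3000 m, with every 600 m library above the other 6. The log2 change was -0.99 to 2000 m (limma's adjusted p = 0.0405) and -1.05 to 3000 m (limma's adjusted p = 0.0441). Rank 101 fell by 1.69 on the log2 scale from 600 m to 3000 m (limma's adjusted p = 0.0432), from 46.9 to 63.4 FPKM down to 10.9 to 22.6 FPKM. At 2000 m, ranks 46, 68 and 110 were higher than at 600 m by 1.08, 0.85 and 0.69, and ranks 39 and 55 were lower, with log2 changes of -1.47 and -1.15. The 3 other genes that were lower there, ranks 27, 124 and 136, changed by -0.90, -0.86 and -0.66.

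These calls, like those of all lung genes, depended on single libraries. Without lung 600 m replicate 2 or without replicate 3, 0 of the 150 genes passed in either comparison with 600 m, and at most 9 of all lung genes did. Without 600 m replicate 1, the library unlike the other 2, 27 passed between 3000 m and 600 m (18%, beside 11.01% of all) and 39 between 2000 m and 600 m (26%, beside 13.5% of all). Without both 600 m replicates 2 and 3, 0 of the 150 and 0 of all genes passed limma's test in either comparison (11 and 19 of the 150 had an unadjusted p under 0.05), and the single remaining library of 600 m is then assumed to vary like the others. The median log2 change of the 150 genes was then -0.07 to 3000 m and -0.12 to 2000 m, and the changes of ranks 60, 132 and 36 were 0.52, 0.95 and -1.996. Leaving out 3000 m replicate 2 or 3 also left 0 between 3000 m and 600 m, with 20 and 9 of all genes, down from 396. So did leaving out 2000 m replicate 1, 2 or 3, with 14, 12 and 3 of all genes. The 2000 m libraries enter this comparison only through the shared estimate of the spread and the filter. Between 2000 m and 600 m, 0 passed without 2000 m replicate 1 or 2 (beside 14 and 8 of all genes). Without 2000 m replicate 3, 1 passed (0.667%, beside 0.0645% of all), and without 3000 m replicate 1, 7 passed (4.67%, beside 2.53% of all). The alternatives were followed for the 11 genes above other than ranks 27, 124 and 136. Their log2 changes kept their sign in all 17 alternatives, and each lost its call in 8 to 14 of them.

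By group, all 49 genes of group 1 had a log2 change above 0 from 600 m to 2000 m, with a median of 0.91, and 45 had one from 600 m to 3000 m, with a median of 0.66, beside 46.1% and 42.5% of all lung genes with a change above 0. Of the 38 genes of group 2, none had a change above 0 from 600 m to 2000 m, with a median of -0.80, and 2 had one from 600 m to 3000 m, with a median of -0.38. Since the groups were formed on the same lung values, these signs carry no support of their own. In group 1, 4 of 49 genes passed for 2000 m against 600 m and 1 of 49 for 3000 m against 600 m. In group 2, 7 of 38 and 1 of 38 did. Of all lung genes, 5.10% and 2.84% passed in these 2 comparisons. For the same reason the counts by group are a description.

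The same genes were then read in heart, where they are low. A member had to have a mean above 0.5 FPKM over the heart libraries to be tested, which 74 of the 150 did, and a gene that passed this filter through the altitude at which it is high had to differ. Between 3000 m and 600 m, 12 of the 74 passed limma's test, all higher at 3000 m (16.2%, beside 7.38% of all 12363 heart genes that passed and were higher and 11.1% that passed in either direction). Between 2000 m and 600 m, 16 of the 74 passed, all higher at 2000 m (21.6%, beside 16.3% and 22.5%). The median log2 change of the 74 was 0.32 at 3000 m and 0.58 at 2000 m, beside 0.08 and 0.13 over all heart genes.

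Rank 44 had the largest heart changes, 5.64 at 3000 m (SE 1.09, limma's adjusted p = 0.0194) and 4.96 at 2000 m (SE 1.09, limma's adjusted p = 0.0145). Rank 90, whose lung values followed a like course of 221, 3.59 and 8.29 FPKM at 600 m and 188 to 3073 FPKM at 2000 m and 3000 m, changed by 3.33 and 2.78. Ranks 94, 107, 110 and 129 also passed in both heart comparisons, which share the 600 m libraries. How many of all heart genes did so was not counted. Rank 1 was low in heart, at 0.557, 1.011 and 0 FPKM at 600 m, 3.52, 2.08 and 1.22 FPKM at 2000 m and 3.39, 2.40 and 2.62 FPKM at 3000 m. Its libraries of 2000 m and 3000 m lay above those of 600 m, with changes of 1.10 (limma's adjusted p = 0.0308) and 1.37 (limma's adjusted p = 0.0265). Its lung level did not pass. In the main fit over both tissues, given below, its lung change did not pass as different from its heart change either.

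Of the genes that passed in heart, 7 of the 12 and 11 of the 16 belonged to group 1, which held 28 of the 74 genes tested. The median of the 49 genes of that group in heart was 0.169, 0 and 0.0613 FPKM at 600 m, 0.942, 0.756 and 0.770 FPKM at 2000 m and 0.581, 0.433 and 1.02 FPKM at 3000 m. The heart libraries of 600 m were thus the 3 lowest of the 9, among them replicate 1, whose lung counterpart was not low. The muscle libraries of 600 m were the lowest of their tissue too, with medians of 0.269, 0.394 and 0 FPKM. Those of the other muscle libraries were 0.656 to 1.32 FPKM. The number of the 150 genes listed at 0 was 57 to 68 in the heart libraries of 600 m and 33 to 41 in the others, and the share of all genes above 0.5 FPKM was 52.8% to 53.6% and 54.9% to 56.8%. The part of this share in the result was not tested. Without heart 600 m replicate 1 the counts were 20 for 3000 m (26.7%, beside 18.9% of all) and 21 for 2000 m (28%, beside 26.47% of all). Without replicate 2 they were 3 (4%, beside 3.41%) and 8 (10.7%, beside 14.6%). Without replicate 3 they were 2 (2.74%, beside 2.42%) and 9 (12.3%, beside 12.4%). The count for 3000 m was 0 without heart 3000 m replicate 1 (beside 0.113% of all) and 3 without replicate 3 (4.17%, beside 2.52%). The count for 2000 m was 9 without heart 2000 m replicate 1 (12.9%, beside 12.1%).

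In muscle 77 of the 150 genes had a mean above 0.5 FPKM, with 600 m replicates 1 and 2 as 1 sample, and were tested. Between 3000 m and 600 m, 6 passed limma's test (7.79%, beside 2.08% of all 11920 muscle genes), 4 higher and 2 lower at 3000 m, beside 0.772% higher and 1.31% lower of all. Between 2000 m and 600 m, 6 passed (7.79%, beside 5.91%), again 4 higher and 2 lower, beside 1.93% and 3.98%. As in heart, a gene could pass the filter through the altitude at which it is high. Rank 44 was higher by 5.50 at 3000 m (limma's adjusted p = 0.0404) and by 5.08 at 2000 m (limma's adjusted p = 0.0360), and rank 90 by 3.32 and 2.99. Rank 38 was lower, with log2 changes of -2.60 and -3.31, and fell from 13.5 and 14.7 FPKM in the 2 samples of 600 m to 0.163 to 0.852 FPKM at 2000 m and 0.136 to 3.96 FPKM at 3000 m. This gene was lower than at 600 m in lung as well, while in heart it averaged 2.17 FPKM at 600 m, 2.32 FPKM at 2000 m and 1.99 FPKM at 3000 m. Rank 119 was the other gene lower in both muscle comparisons, with changes of -1.34 and -1.22. Both counts fell without muscle 600 m replicate 3 and rose without the mean of replicates 1 and 2, as did those of all muscle genes. Each of these fits leaves 1 sample at 600 m that is assumed to vary like the others, so their counts are not given. For 3000 m, 1 passed without 3000 m replicate 1 (1.28%, beside 0.445% of all) and 0 without replicate 3 (beside 0.260%). Without replicate 2, the library in which 99 of the genes were above 0.5 FPKM, 9 passed (12.7%, beside 7.57% of all). For 2000 m, 0 passed without 2000 m replicate 1 (beside 0.982% of all) or 3 (beside 0.588%) and 1 without replicate 2 (1.28%, beside 0.604%).

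Whether the change in lung differed from that in heart was tested in 1 fit over both tissues. For 3000 m against 600 m, 0 of the 150 genes passed limma's test (0.0716% of all genes did, and 20 of the 150 had an unadjusted p under 0.05). For 2000 m against 600 m, 2 passed (1.33%, beside 0.107% of all), ranks 27 and 79, both with a lower change in lung than in heart. Same-numbered heart and lung libraries deviated together, and with the animal as a block the counts were 1 (0.667%, beside 0.0358% of all) and 7 (4.67%, beside 0.745% of all), all lower in lung than in heart. Ranks 27 and 79 were among the 7.

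In all, 35 of the 150 genes (23.3%) passed in at least 1 of the 7 comparisons within a tissue, beside 27.8% of the 14562 genes tested in any of them. Among those in lung between 2000 m and 600 m, ranks 110 and 132 were also higher in heart, rank 110 was higher in muscle, and rank 27, lower in lung, was higher in heart. Rank 110 had 63.0, 52.4 and 58.7 FPKM in lung at 600 m and 80.9 to 103 FPKM at 2000 m, with 1.06 to 1.49 and 3.83 to 5.38 FPKM in heart and 1.15 and 1.24 and then 2.97 to 4.93 FPKM in the muscle samples. It was thus the 1 gene of the list that passed for 2000 m against 600 m in the same direction in each tissue. Its log2 changes were 0.69 in lung, 1.24 in heart and 1.13 in muscle, without overlap between the altitudes in any of them. The share of all genes that passed in more than 1 tissue was not counted, so these overlaps are a description.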

How the data were processed

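RNA-seq of goat heart, lung and skeletal muscle was used from 27 libraries, grouped by the labels. The authors made strand-specific libraries, aligned the reads with TopHat2 2.0.11 and estimated FPKM with Cufflinks 2.2.1, and the deposited values are log2(FPKM + 1). The methods name CHIR_1.0 as the goat reference genome. How the 2000 m libraries were handled is not stated in the methods. The log scale was undone to obtain FPKM. With no counts at hand, depth could be estimated only as a relative value, from the spacing of values below 0.15 FPKM (286 of 351 pairs of libraries kept, residual SD 0.0369 on the log2 scale), and whole reads were recovered for 1345 genes within a tolerance of 0.2, and compared over genes with 10 to 2000 reads. The sampling noise derived from these reads covers counting error only.

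Altitudes were compared within a tissue with limma 3.58.1 (lmFit, then eBayes with a trend) in R 4.3.3 on log2(FPKM + 1) with a pseudocount of 1, which understates changes of low genes. All 3 altitudes shared 1 estimate of the spread. Genes with a mean above 0.5 FPKM over the libraries of the tissue were tested two-sided, with Benjamini-Hochberg adjustment over all of them and a threshold of 0.05. The authors used Cuffdiff, which needs alignments not used here. The lung change minus the heart change was tested over genes above 0.5 FPKM in lung. Muscle 600 m replicates 1 and 2 were averaged and counted as 1 sample. Deviations from the group means correlated at 0.15 to 0.45 between same-numbered heart and lung libraries and at -0.38 to 0.14 between others, so the numbers were taken to pair these tissues. In simulated lung data for 3000 m against 600 m with 13965 genes, limma recovered 45% of the genes given a log2 change of 1. It recovered 87% of the genes given one of 2, with 9 false calls. These rates describe the simulated data only. In the real data, the calls among all lung genes in this comparison went from 396 to 0 without 600 m replicate 2. They rose to 1537 without 600 m replicate 1. The within-altitude SD in lung had a median of 0.504 over the listed genes and 0.266 over all. The rates therefore cannot be carried over to these libraries or to the listed genes. Python 3.11.15 with NumPy 2.4.6, pandas 2.3.3, SciPy 1.17.1 and matplotlib 3.10.9 was used for the rest.

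The genes and lists were chosen with earlier results of these data known. The text names the 10 genes of highest excess and the 5 of highest lung FPKM. It names up to 5 higher and 5 lower genes that passed in lung against 600 m without overlap, the genes at the edge of the list, the 5 most and 5 least variable, and the 3 highest in heart and in muscle. Ranks 27, 79, 90, 94, 107, 119, 124 and 129, and those cited as examples of a group, were named after their values were seen. IDs are printed for 4 genes only. Alternatives were another pseudocount, filter or scaling, fits of the compared altitudes alone, replicate blocks and leaving out libraries. Those without lung 600 m replicates 2 and 3, without libraries of the third altitude, without each lung library in the list and without rank 44 were chosen after seeing the data. Planned marker lists were not used, since no ID was paired with a symbol.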

Additional observations from a re-analysis of the deposited data

Results flagged for a closer look

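For 2 of the 150 genes the change from 600 m to 2000 m differed between lung and heart in limma's test of that difference. All 150 were chosen for a heart level far below that in lung. Rank 27 had 213, 310 and 323 FPKM in lung at 600 m and 170, 124 and 155 FPKM at 2000 m, and 0.676, 0.665 and 0.772 FPKM and then 1.89, 1.82 and 1.503 FPKM in heart. Its lung change minus its heart change was -1.58. It was lower in lung at 2000 m and higher in heart, without overlap in either tissue.

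Rank 79 had 216, 155 and 265 FPKM in lung at 600 m and 146, 119 and 164 FPKM at 2000 m, and 3.30, 2.06 and 0.985 FPKM and then 5.55, 12.4 and 12.9 FPKM in heart. Its lung change minus its heart change was -2.40. The lung libraries of the 2 altitudes overlapped and those of heart did not. Neither gene passed after median-of-ratios scaling or quantile normalization, where 0 of the 150 did, beside 2 and 1 of all 13965 genes.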

How the results depend on the processing

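The list kept 101 of its 150 genes with log2(FPKM + 0.1), 144 after median-of-ratios scaling, 139 with IDs of every kind, 121, 124 and 134 from 600 m, 2000 m or 3000 m alone, and 138 to 146 when replicates were left out. The mean lung share of 8.33% became 3.59% without the 10 most abundant genes, and 6.83% to 8.68% without 1 library.

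Counts of genes that passed were moved over 1.5-fold by these settings. For lung, 3000 m against 600 m, the 3 became 1 with a filter of mean FPKM above 0 (0.667%, beside 1.10% of all genes). They became 0 after quantile normalization (beside 0.308% of all), in the compared altitudes alone (beside 0.00716%) and with a replicate block (beside 0.0143%). Leaving out 1 library gave 0 to 27. For lung, 2000 m against 600 m, the 12 became 3 with that filter (2%, beside 1.31% of all). They became 1 in the compared altitudes alone (0.667%, beside 0.537%) and 0 with a replicate block (beside 0.107%). Leaving out 1 library gave 0 to 39. Same-numbered lung libraries of different altitudes correlated at only -0.18 to 0.27, so they share only a number. For lung, 3000 m against 2000 m, the count was 0 in all alternatives.

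For heart, the 12 for 3000 m became 5 in the compared altitudes alone (6.76%, beside 2.27% of all genes) and 0 to 20 leaving out 1 library. The 16 for 2000 m became 8 after quantile normalization (10.8%, beside 20.1% of all) and 8 to 21 leaving out 1 library. For muscle, 3000 m, the 6 became 0 with the filter above 0 (beside 0.231% of all) and 0 in the compared altitudes alone (beside 0.134%). They became 3 after median-of-ratios scaling (3.90%, beside 1.83%) and 2 after quantile normalization (2.60%, beside 1.31%). Leaving out 1 library gave 0 to 9. For muscle, 2000 m, the 6 became 0 with the filter above 0 (beside 0.504% of all). They became 3 in the compared altitudes alone (3.90%, beside 3.17%). With 600 m replicates 1 and 2 as separate samples they became 10 (13.2%, beside 13.04%). Leaving out 1 library of 2000 m gave 0 or 1. For lung minus heart, the 0 for 3000 m became 1 with log2(FPKM + 0.1) (0.667%, beside 0.1003% of all). With the animal as a block it became 1 (0.667%, beside 0.0358%). Leaving out 1 library gave 0 to 7, the 7 without lung 600 m replicate 1 (4.67%, beside 1.19%). The 2 for 2000 m became 4 with log2(FPKM + 0.1) (2.67%, beside 0.193%) and 7 with the block (4.67%, beside 0.745%). They became 0 after median-of-ratios scaling (beside 0.0143%) or quantile normalization (beside 0.00716%). Leaving out 1 library gave 0 to 12, the 12 without lung 600 m replicate 1 (8%, beside 1.59%). The causes were not tested. Direction was followed only for the genes that passed in lung, with the exceptions given above, and none of those reversed. In lung, the list's median log2 change from 600 m turned from above 0 to below 0 without 600 m replicates 2 and 3. Altitude, population and any difference in how the groups were processed cannot be told apart, and with 3 libraries per group and an unknown depth, genes that did not pass are not shown to be alike.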

Other observations

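Genes predicted without a homolog, which carry another kind of ID and were not eligible, reached like levels. Of 4460 such genes, 32 had the lung excess and the lung FPKM that were asked for, and 11 would be among the first 150 if IDs of every kind were ranked. The first of them would stand at position 13, with an excess of 7.88 and a mean of 470 FPKM in lung (135 to 1025 over the 9 libraries), 0.626 FPKM in heart and 0.773 FPKM in muscle.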
